A study of Mus musculus with 9 samples.

Results

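The 7 subunits of respiratory complex I that mouse mitochondrial DNA encodes were followed by their transcripts, mt.Nd1, mt.Nd2, mt.Nd3, mt.Nd4, mt.Nd4l, mt.Nd5 and mt.Nd6, in heart RNA from Mybpc3 mutant and wild-type mice. They were taken by symbol and are 7 of the 15779 genes in the deposited tables. The set was chosen partly because mt.Nd3 varied widely between libraries of 1 group, so mt.Nd3 is described here without a test. All hearts came from adult C57BL/6J mice, and each of the 3 groups holds 3 libraries of poly(A)-selected RNA. The first group is wild type (Mybpc3wt) given saline. The second is homozygous for an Mybpc3 premature stop codon (Mybpc3R946X/R946X) and given saline. The third has the same homozygous genotype and was treated with high-dose-exABE8e. Mybpc3 encodes cardiac myosin-binding protein C, and the study tested adenine base editors, enzymes that convert A to G in DNA, delivered by adeno-associated virus for expression in cardiomyocytes. The labels state neither the number of animals, nor their sex or age in weeks, nor the dose. They also do not say that replicates are separate animals, so the p-values below measure only the spread between these samples, which may be technical.

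Complex I takes electrons from NADH, passes them to ubiquinone and pumps protons across the inner mitochondrial membrane. The core of its membrane arm is built from the mitochondrially encoded subunits, and its peripheral arm, which holds the NADH site and the iron-sulphur clusters, is encoded in the nucleus. Mitochondrial DNA is transcribed as long precursors that are cleaved into single messengers, so a messenger's level depends on transcription, cleavage and decay. Heart muscle is among the tissues richest in mitochondria.

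The deposited values are whole numbers that sum to between 999152 and 999382 in every library, with 14151 to 14934 genes above 0. They are therefore given on a per-library scale with a near-constant sum, and the read depth behind them is unknown. Transcripts of mitochondrial DNA made up 17.0 to 24.1% of each library. Mybpc3 itself was at 1781 ± 265 (SD, n = 3) in wild type, 154 ± 28.4 in saline mutant and 1243 ± 191 in treated mutant libraries, highest in wild type and lowest in the saline mutant without overlap. Xist, a transcript of female cells, was above 0 in 1 library of each group. Cardiomyocyte markers were all found (8 of 8), and their summed values overlapped between the groups, with medians of 64279, 62279 and 63851 in wild type, saline mutant and treated mutant. The sum does not describe each marker: in saline mutant against wild type 4 were higher and 4 lower. Of the 5 brown fat markers, Ucp1, Adipoq and Plin1 were not listed. The other 2, Fabp4 and Cidea, were listed, with summed values of 516 to 949 over the 9 libraries.

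In the GRCm38 build, which is the mm10 build of the submitters' processing notes, mt.Nd1 lies on the mitochondrial chromosome at chrM:2751-3707 and mt.Nd2 at chrM:3914-4951. A second cluster follows, with mt.Nd3 (ENSMUSG00000064360.1) at chrM:9459-9806, mt.Nd4l (ENSMUSG00000065947.3) at chrM:9877-10173, mt.Nd4 at chrM:10167-11544 and mt.Nd5 at chrM:11742-13565. These 6 are on the plus strand, and each is a single uninterrupted coding gene. mt.Nd6 (ENSMUSG00000064368.1), at chrM:13552-14070, is the only one of the 7 on the minus strand. It overlaps mt.Nd5 by 14 bases on the opposite strand, and mt.Nd4l overlaps mt.Nd4 by 7 bases on the same strand. Whether reads were counted by strand is not given in the sources used here. Without strand, reads in the overlap of mt.Nd6 and mt.Nd5 cannot be told apart. Any plus-strand RNA running past the annotated end of mt.Nd5 would then also count as mt.Nd6. In the same-strand overlap of mt.Nd4l and mt.Nd4, strand would not separate the reads.

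The members mt.Nd3, mt.Nd4l and mt.Nd4 have near-identical copies in the nuclear genome, which bear on how their values can be read. A search of the GENCODE M21 transcripts found unprocessed pseudogenes side by side on the minus strand of chromosome 1. Gm28438 (chr1:24612775-24613119) matches the first 345 of the 348 bases of mt.Nd3 with 1 mismatch, T3C, counted from base 1 at the 5′ end of the mt.Nd3 transcript and lying at position 9461 of the mitochondrial chromosome. Gm10222 (chr1:24612407-24612700) matches 294 of the 297 bases of mt.Nd4l with 0 mismatches, and Gm28439 (chr1:24611535-24612410) matches the first 876 of the 1378 bases of mt.Nd4, also with 0 mismatches. The starts of mt.Nd3 and of its copy are shown because the capital letter marks the single base that differs over the 345 bases compared. Bases of mt.Nd3 beyond base 345 lie past the annotated end of Gm28438 and were not compared. The end of mt.Nd4l is shown because its capitals mark the only bases beyond the annotated end of Gm10222. Those bases also lie in the start of mt.Nd4, which Gm28439 matches. They therefore do not separate mt.Nd4l from the nuclear sequence.
mt.Nd3, bases 1 to 60: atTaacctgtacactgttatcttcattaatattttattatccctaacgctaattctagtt
Gm28438, bases 1 to 60: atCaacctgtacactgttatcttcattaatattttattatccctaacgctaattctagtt
mt.Nd4l, bases 238 to 297: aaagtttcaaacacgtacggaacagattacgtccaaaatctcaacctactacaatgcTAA

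The other members resemble nuclear sequences less closely. mt.Nd2 has a copy of 96.7% identity over 510 bases (Gm13339), mt.Nd5 one of 95.2% over 954 bases (Gm4076) and mt.Nd6 one of 93.6% over all of its 519 bases (Gm11408), while mt.Nd1 had no match of at least 90%. How the authors treated reads that map to more than 1 place is not given in the sources used here. For mt.Nd3, mt.Nd4l and the first part of mt.Nd4, transcripts of the mitochondrial gene and of the copy therefore cannot be told apart over the identical stretch.

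The 7 transcripts together took 7.62 ± 1.01% (SD, n = 3) of the library total in wild type, 7.0 ± 1.15% in saline mutant and 6.21 ± 0.650% in treated mutant hearts. Single libraries ran from 6.97 to 8.78%, from 5.82 to 8.13% and from 5.49 to 6.74%, so the 3 groups overlapped. Nearly all of this came from mt.Nd1, mt.Nd2, mt.Nd4 and mt.Nd5, which made up 95.6 to 97.9% of the members' sum in every library. As a share of the 13 mitochondrial messengers the members were at 35.8 ± 1.73% in wild type, 37.6 ± 2.33% in saline mutant and 33.3 ± 0.740% in treated mutant hearts. In the treated mutant group all 3 libraries, at 33.7, 32.5 and 33.8%, were below every library of the other groups, the nearest of which was a wild-type library at 33.9%. In these bulk samples, fewer cells of a type and less RNA per cell cannot be told apart.

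Levels of different members were compared per length of transcript, in deposited value per kilobase, with the reservation that the sources used here do not say whether the authors' values were already scaled for length. In wild type, mt.Nd1 stood highest at 24826 per kilobase, followed by mt.Nd2 at 16834, mt.Nd4 at 10528, mt.Nd5 at 9677 and mt.Nd6 at 4646. mt.Nd4l, at 761, and mt.Nd3, at 443, were the lowest of the 7. Both are among the 5 mitochondrial messengers for which at least 98% of the transcript lies in a nuclear copy of at least 99% identity, the others being mt.Atp6, mt.Co2 and mt.Co3. Those 5 ran from 443 to 3651 per kilobase in wild type. Of the 8 messengers without such an annotated copy, mt.Atp8 was at 325 and the other 7, among them mt.Nd1, mt.Nd2, mt.Nd4, mt.Nd5 and mt.Nd6, ran from 4646 up to 62722 for mt.Co1. The search covered annotated transcripts only. It placed the last 43 bases of mt.Atp8 in Gm10925, the copy of mt.Atp6, at 100% identity. An unannotated copy of the rest of mt.Atp8 was not looked for. The part of the copies in the low values was not tested.

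**Figure D1:**
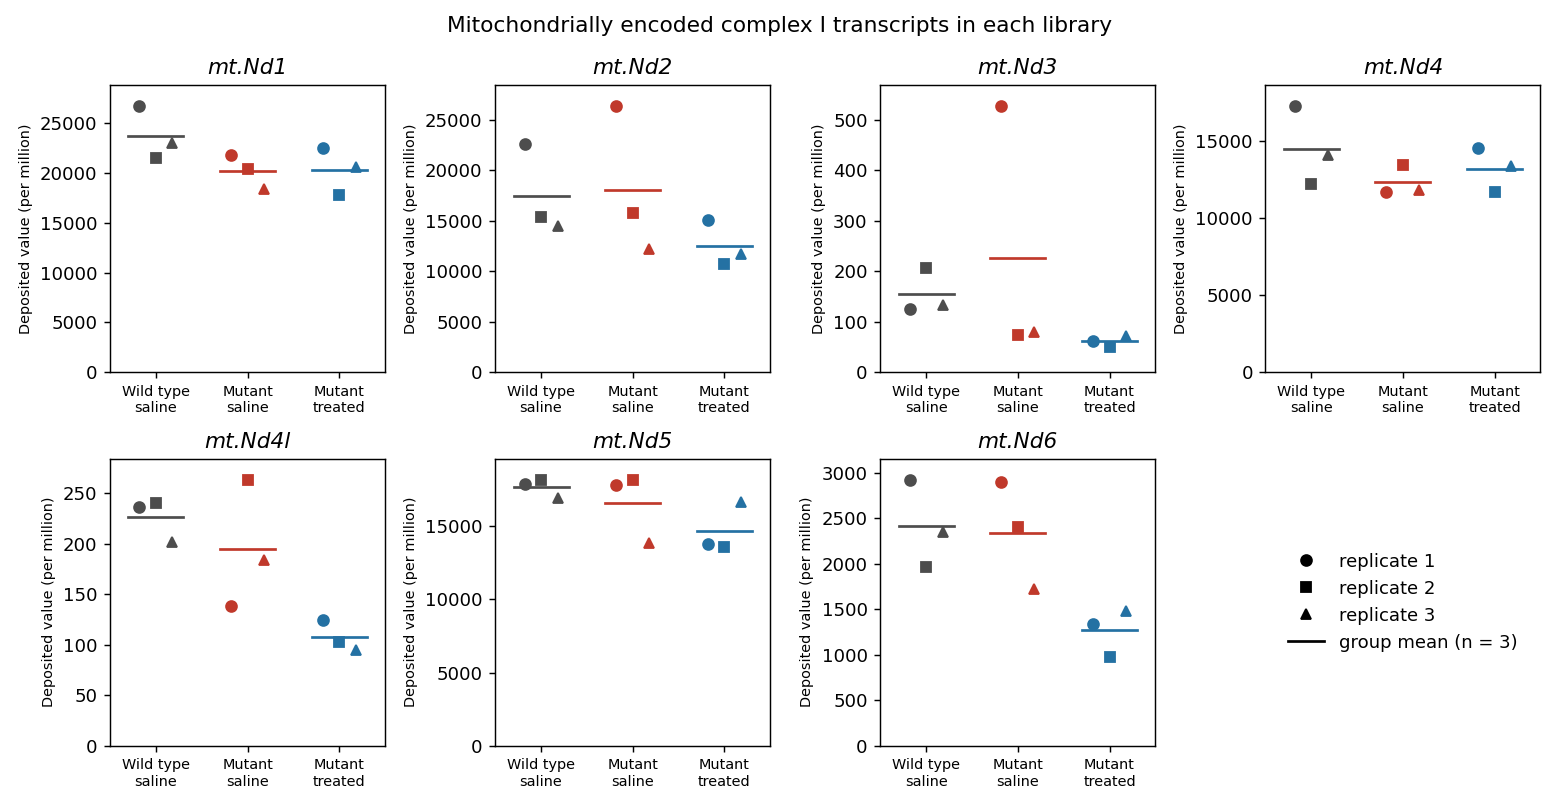
Deposited value, scaled by the authors to a common library sum (vertical axes, each from 0) of the 7 transcripts in each of the 9 libraries, with 1 point per library shaped by its replicate number and a line at each group's mean (n = 3). The treated mutant points lie below every wild-type point for mt.Nd3, mt.Nd4l, mt.Nd5 and mt.Nd6, and 1 saline mutant library stands far above the rest for mt.Nd3.

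The large subunits ND2, ND4 and ND5 resemble antiporters and line up along the membrane arm as its proton channels. mt.Nd2 was at 22632, 15340 and 14448 in wild-type replicates 1, 2 and 3, at 26339, 15766 and 12151 in the saline mutant and at 15044, 10694 and 11740 in the treated mutant. Replicate 1 was the highest of its group in each, and all groups overlapped. mt.Nd4 was at 17256, 12201 and 14064 in wild type, at 11658, 13436 and 11817 in the saline mutant and at 14517, 11674 and 13373 in the treated mutant. Its group means, 14507 ± 2556, 12304 ± 984 and 13188 ± 1431 (SD, n = 3), lay within the spread of the libraries. mt.Nd5, which encodes the subunit at the far end of the arm, was at 17884, 18156 and 16915 in wild type and at 17826, 18142 and 13844 in the saline mutant. In the treated mutant it was at 13766, 13553 and 16642, below every wild-type library but overlapping the saline mutant.

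ND1 sits where the membrane arm meets the peripheral arm and helps to form the channel through which ubiquinone enters. mt.Nd1 was at 26729, 21530 and 23017 in wild type, at 21854, 20406 and 18390 in the saline mutant and at 22509, 17782 and 20630 in the treated mutant. The 3 groups overlapped, and the means of both mutant groups, 20217 ± 1740 and 20307 ± 2380, were 85.1 and 85.5% of the wild-type mean.

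ND3, ND6 and ND4L are the small subunits that lie between ND1 and the antiporter-like subunits. mt.Nd6 was at 2923, 1964 and 2347 in wild type and at 2898, 2402 and 1725 in the saline mutant, which overlapped. In the treated mutant it was at 1343, 976 and 1484, and all 3 of these libraries were below all 6 saline libraries. The treated mean was 52.6 ± 10.9% of the wild-type mean, against 97.1 ± 24.4% for the saline mutant. Set against its neighbour mt.Nd5 in the same library, mt.Nd6 was 13.7 ± 2.77% in wild type, 14.0 ± 2.01% in the saline mutant and 8.62 ± 1.30% in the treated mutant. No treated library exceeded 9.76%, and no saline library was below 10.8%. The ND6 messenger of human mitochondria is known to carry little or no poly(A) tail, and these libraries were selected on poly(A). How that selection acted on mt.Nd6 here was not tested, nor was the part of plus-strand RNA in its values.

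mt.Nd4l was at 236, 240 and 202 in wild type and at 138, 263 and 184 in the saline mutant, where the groups overlapped. In the treated mutant it was at 124, 103 and 95, below all 6 saline libraries. Relative to mt.Nd4, with which it overlaps, mt.Nd4l was at 1.37, 1.97 and 1.44% in wild type, at 1.18, 1.96 and 1.56% in the saline mutant and at 0.854, 0.882 and 0.710% in the treated mutant. The treated libraries were again the 3 lowest, while mt.Nd4 itself had a treated mean of 90.9 ± 9.86% of the wild-type mean. The copy Gm10222 was listed at 90, 89 and 81 in wild type, at 63, 70 and 71 in the saline mutant and at 58, 47 and 67 in the treated mutant. With Gm10222 added, mt.Nd4l came to 326, 329 and 283 in wild type, to 201, 333 and 255 in the saline mutant and to 182, 150 and 162 in the treated mutant, so the treated libraries were still the 3 lowest.

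mt.Nd3 was at 124, 207 and 132 in wild type, at 527, 74 and 80 in the saline mutant and at 62, 50 and 72 in the treated mutant. Saline mutant replicate 1 thus stood 7.12-fold above the lowest library of its group. Among the 4981 genes with a mean of at least 30, the log2 range of mt.Nd3 within the saline mutant group, 2.82, ranked 7 from the widest, where the median gene had a range of 0.24. In that group mt.Nd2 ranked 41, with a range of 1.12, and mt.Nd4 ranked 2956, with a range of 0.20. These ranks describe the spread for which the set was chosen and carry no test.

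The nuclear copy of mt.Nd3 also stood out in 1 library, and not in the same one. Gm28438 was listed at 661 in wild-type replicate 1 and at 42 and 42 in the other wild-type libraries, at 60, 40 and 45 in the saline mutant and at 32, 23 and 37 in the treated mutant. Within wild type its log2 range, 3.94, ranked 4 among the 4981 genes. The copy took 84.2% of the sum of both genes in that wild-type library and 10.2% in saline mutant replicate 1, against 16.9 to 36% in the other 7 libraries. The sum itself was at 785, 249 and 174 in wild type, at 587, 114 and 125 in the saline mutant and at 94, 73 and 109 in the treated mutant. It was therefore high in both of those libraries, whichever gene was credited. The single base that differs over the 345 bases compared, T3C, is a mitochondrial position known to differ between C57BL/6 substrains. Which base the RNA of each library carried, and its part in the split, was not tested.

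**Figure D2:**
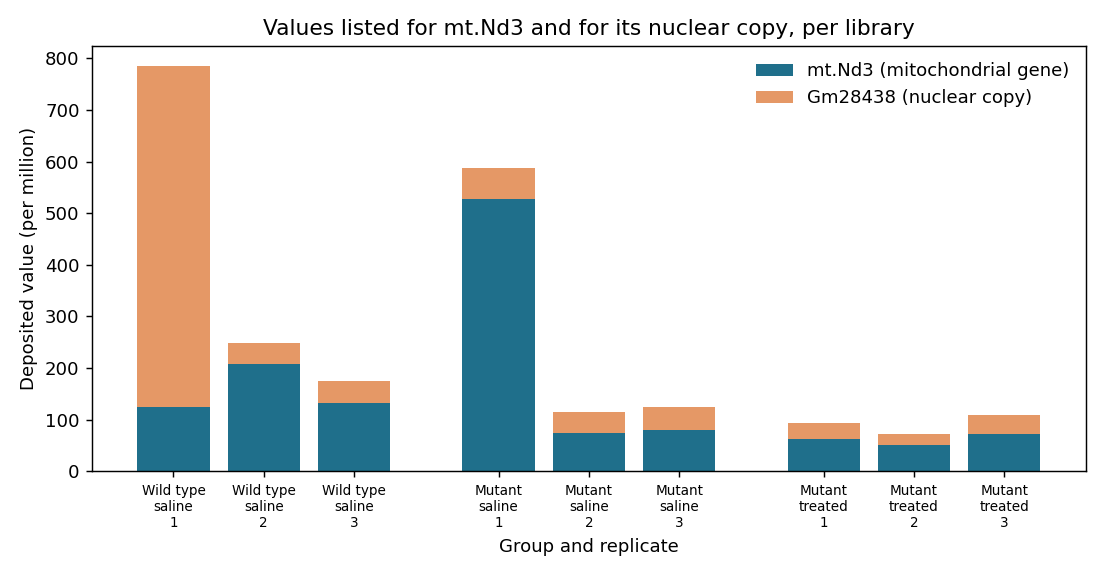
Deposited value, scaled by the authors to a common library sum (vertical axis) listed for mt.Nd3 and, stacked on it, for its nuclear copy Gm28438 in each of the 9 libraries (horizontal axis, group and replicate). The sums reach 785 in 1 wild-type library and 587 in 1 saline mutant library, both numbered 1, where different genes hold most of the value, and lie between 73 and 249 in the other 7.

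Those 2 libraries also held the highest values of other members. mt.Nd2 was at 22632 in the wild-type and 26339 in the saline mutant library, against 10694 to 15766 in the other 7 libraries. mt.Nd6 was at 2923 and 2898, against 976 to 2402. The same held outside complex I for mt.Co2 (2856 and 2965, against 1488 to 2371), mt.Atp8 (94 and 66, against 23 to 56) and Gm28439 (599 and 437, against 282 to 421). mt.Nd1, mt.Nd4, mt.Nd4l and mt.Nd5 did not follow this split: mt.Nd5, for example, was at 17884 and 17826, within the 13553 to 18156 of the other libraries. Outside complex I, mt.Co1, mt.Co3, mt.Cytb, mt.Atp6, mt.Rnr1, mt.Rnr2 and Gm10222 did not follow it either. mt.Co3, for example, was at 3444 and 1498, against 1361 to 2896. The 2 libraries were picked by their mt.Nd3 and Gm28438 values, and the share of all genes with this split was not counted.

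Across the 9 libraries the 21 pairs of members had Pearson correlations of their log2 values between -0.18 and 0.83, with a median of 0.56 and 20 of the 21 above 0. The points share libraries and the scaling to a common sum, and the values are given as a description. Among 4974 other genes with a mean of at least 30, Ppp1cb, a catalytic subunit of protein phosphatase 1, was the most similar to mt.Nd3 (r = 0.86). Ppp1cb was at 594 in saline mutant replicate 1 and 536 in wild-type replicate 1, and at 428 to 479 in the other 7 libraries. Next came Chpt1 (0.79), Zmiz2 (0.77), Hmgcs1 (0.76) and Mzt1 (0.75). These genes, like those named next, were picked as the highest of 4974 correlations over 9 libraries. Some varied little: Zmiz2 stayed between 50 and 57. The mean of the other 6 members was most similar to mt.Atp8 (0.91), a mitochondrially encoded subunit of ATP synthase. It was followed by Gm28439 (0.91), Gm10039 (0.90), Lbh (0.89) and Uqcrq (0.89), a nuclear-encoded subunit of complex III.

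The first comparison asked whether the mutant heart differed from wild type without treatment. None of the 6 tested members passed the test, and every one of the 7 overlapped between the groups. The log2 differences, saline mutant minus wild type on the log2(value + 1) scale, were -0.23 (SE 0.17) for mt.Nd1, 0.00 (SE 0.30) for mt.Nd2, -0.23 (SE 0.17) for mt.Nd4, -0.26 (SE 0.21) for mt.Nd4l, -0.10 (SE 0.17) for mt.Nd5 and -0.06 (SE 0.21) for mt.Nd6. The lowest p adjusted by Benjamini-Hochberg over 13632 genes in limma, a linear model with moderated variances, was 0.516, for mt.Nd1. In the same fit 1050 genes passed an adjusted p of 0.05, or 7.7% of those tested. At an unadjusted p under 0.05 in limma the count was 0 of 6 members, against 19.7% of all genes.

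The 95% intervals show what size of difference these 3 libraries a group could not separate from 0. For mt.Nd1 the interval of the fold ran from 0.652 to 1.11, for mt.Nd5 from 0.717 to 1.22, and for mt.Nd6 from 0.689 to 1.34. It was widest for mt.Nd2, from 0.625 to 1.61, and reached lowest for mt.Nd4l, from 0.603 to 1.16. The median of the 7 members was -0.10 beside 0.07 for all genes tested, and it turned to 0.10 when libraries were scaled to the 13 mitochondrial messengers, a scaling that moved the median of all genes to 0.26. mt.Nd3 had a difference of -0.04 that depended on 1 library: without saline mutant replicate 1 it was -0.96. With the copy Gm28438 added, a sum chosen after seeing the data, it was -0.67. That sum gave -0.03 when wild-type replicate 1 was left out and -1.43 when the first saline mutant library was.

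Of the other mitochondrial messengers, mt.Co3, a subunit of cytochrome c oxidase, fell from 2863 ± 599 to 1582 ± 236 (SD, n = 3), a log2 difference of -0.84 (SE 0.18) with a limma adjusted p of 0.0221. It was the only 1 of 6 that passed. The nuclear copy Gm28437 matches 783 of the 784 bases of mt.Co3 at 100% identity, and reads of that stretch cannot be told apart. The value of that copy was not taken into account. mt.Rnr1, the small ribosomal RNA, also fell, by a log2 difference of -0.62 (SE 0.12) with a limma adjusted p of 0.0132, and mt.Rnr2 did not pass. Fibroblast markers were higher in the saline mutant (summed values 1935 to 2983) than in wild type (1200 to 1586), with Col1a1 and Col1a2 past the limma test among 6. Blood markers were lower, at 69 to 85 against 104 to 313, with Alas2 and Hba.a2, both at low values, past the limma test among 5. The skeletal muscle marker Myl1 was also lower, at 15.7 ± 4.04 against 30.7 ± 0.577 (SD, n = 3, limma adjusted p = 0.0117). In log2 difference all 6 macrophage markers were above 0 and all 5 endothelial markers below 0, and none of them passed. Their part in the mitochondrial values was not tested.

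**Figure D3:**
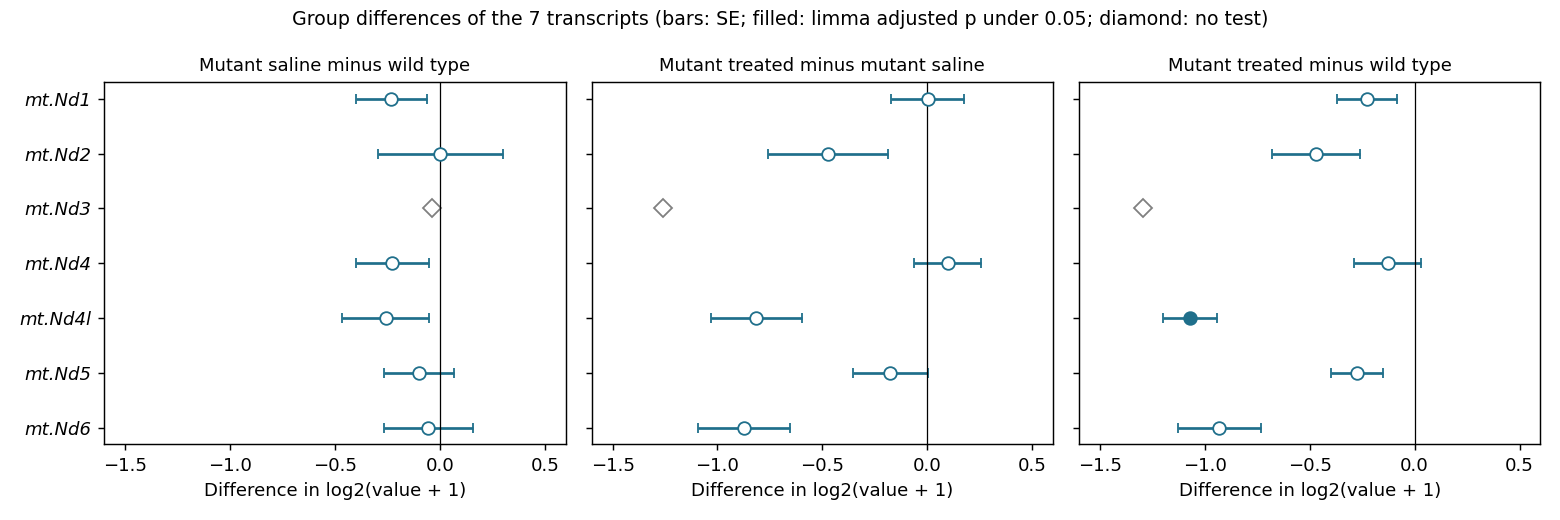
Difference in log2(value + 1) (horizontal axes) for each of the 7 transcripts in the 3 comparisons, with bars of 1 SE from limma, n = 3 libraries a group. Filled points have a limma adjusted p under 0.05, which only mt.Nd4l in treated mutant minus wild type reached, and the open diamond is mt.Nd3, shown without a test; scaling to the 13 mitochondrial messengers turns the sign of mt.Nd3, mt.Nd5 and mt.Nd6 in the first comparison, of mt.Nd1 in the second and of mt.Nd4 in the third.

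The second comparison set treated against saline mutant hearts. mt.Nd6 and mt.Nd4l were lower in all 3 treated libraries than in all 3 saline mutant libraries, and neither passed the adjusted test. The log2 difference, treated minus saline mutant, was -0.87 for mt.Nd6 (SE 0.22, 95% interval -1.38 to -0.37, limma adjusted p = 0.323, unadjusted p = 0.00353). It was -0.81 for mt.Nd4l (SE 0.22, 95% interval -1.31 to -0.32, limma adjusted p = 0.359, unadjusted p = 0.00517). In this fit 2 of 13636 genes passed, or 0.0147%, and 0 of the 6 tested members did. Without overlap and lower in the treated group were 2 of the 6, against 4.34% of all genes, and mt.Nd3 besides. At an unadjusted limma p under 0.05 were 2 of the 6, against 8.29% of all genes. With libraries scaled to the 13 mitochondrial messengers, mt.Nd6 among them, 58 genes passed. mt.Nd6 was 1 of these (limma adjusted p = 0.00394).

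The remaining members did not separate. mt.Nd2 differed by -0.47 (SE 0.28), a value that was -0.16 without saline mutant replicate 1, the library in which it was highest. mt.Nd1 differed by 0.00 (SE 0.17), mt.Nd4 by 0.10 (SE 0.16) and mt.Nd5 by -0.18 (SE 0.18), with limma adjusted p-values of 0.848 or more. The intervals of the fold ran from 0.762 to 1.32 for mt.Nd1 and from 0.833 to 1.37 for mt.Nd4. For mt.Nd2 and mt.Nd5 they ran from 0.460 to 1.13 and from 0.666 to 1.18. mt.Nd3 had a difference of -1.26, and its nearest libraries were 72 in the treated and 74 in the saline mutant. Without saline mutant replicate 1 that difference was -0.34. The median of the 7 was -0.47, beside -0.02 for all genes. Summed fibroblast markers were at 1452 to 1848 in the treated against 1935 to 2983 in the saline mutant libraries, and blood markers at 140 to 158 against 69 to 85, and their part in these values was not tested.

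The authors' deposited table of treated against saline mutant hearts lists 137 genes as changed, among them mt.Nd3, mt.Nd4l and mt.Nd6, with log2 fold changes of -1.92, -0.81 and -0.87. The p-values in that list's selecting column equal the unadjusted p of the authors' own statistic. In the authors' deposited table of saline mutant against wild type, 689 genes are listed and none of the 7 members is among them.

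Treated mutant against wild type was the third comparison. It shares its libraries with the others, so its values are given side by side with theirs and not as separate support. mt.Nd4l fell in the treated hearts, from 226 ± 20.9 to 107 ± 15 (SD, n = 3), a log2 difference of -1.07 (SE 0.13, limma adjusted p = 0.0258) and a fold of 0.476 with a 95% interval of 0.386 to 0.586. It was the only 1 of the 6 tested members that passed, in a fit where 134 of 13554 genes, or 0.989%, did. Lower calls were 17 of them, or 0.125%. With Gm10222 added to it, a sum likewise chosen after seeing the data, the log2 difference was -0.92 (limma adjusted p = 0.0256). The call was lost when single libraries were left out: the limma adjusted p was 0.0945, 0.0940 and 0.0676 without wild-type replicate 1, 2 or 3, and 0.0722 without treated replicate 2, while the difference stayed between -1.18 and -0.99. It was 0.0668 without the 3 libraries that hold Xist, 0.0524 when scaled to the 13 mitochondrial messengers and 0.0572 without the floor on variances.

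mt.Nd6 differed by -0.93 (SE 0.20, 95% interval -1.39 to -0.47), with a limma adjusted p of 0.102 and an unadjusted p of 0.00186. mt.Nd5 differed by -0.27 (SE 0.13, limma adjusted p = 0.423), although its treated libraries were all below the wild-type libraries. mt.Nd2 was at -0.47 (SE 0.21), mt.Nd1 at -0.23 (SE 0.15) and mt.Nd4 at -0.13 (SE 0.16), none past the test. Lower without overlap were 3 of the 6 tested members, mt.Nd4l, mt.Nd5 and mt.Nd6, against 5.43% of all genes. At an unadjusted limma p under 0.05 were 2 of the 6, against 12.5%. mt.Nd3 had a difference of -1.29, and -1.82 with its copy Gm28438 added. The latter rested on wild-type replicate 1, where the copy was at 661, and was -1.19 without that library.

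All 7 members had a difference below 0 in treated mutant against wild type, with a median of -0.47 beside 0.01 for all genes, although mt.Nd4 turned to 0.063 when libraries were scaled to the 13 mitochondrial messengers. The authors' deposited table of this comparison lists mt.Nd3, mt.Nd4l and mt.Nd6 among 317 genes, with log2 fold changes of -1.34, -1.09 and -0.95. It also lists the copies Gm10222 and Gm28439.

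The nuclear-encoded partners of these subunits were compared in the same fits. The 7 nuclear-encoded core subunits carry the NADH site and the iron-sulphur clusters, and in saline mutant against wild type all 7 were lower without overlap, against 8.78% of all genes, with 0 of 7 past the limma test. Their median there was -0.28, beside -0.10 for the mitochondrially encoded members, of which 0 of 7 were without overlap. Ndufs7, which binds the last iron-sulphur cluster before ubiquinone, was nearest to it, at 264 ± 20.7 in wild type and 197 ± 17.3 in the saline mutant, a log2 difference of -0.42 (SE 0.11, limma adjusted p = 0.0507). Ndufs8 differed by -0.36 (limma adjusted p = 0.0590). In treated against saline mutant hearts the core list had a median of 0.15, with 7 of 7 above 0 and 5 without overlap, against 5.48% of all genes that were higher without overlap. In treated mutant against wild type its median was -0.08, and 0 of 7 passed in either comparison.

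The 29 accessory subunits, which surround the core, had 0 genes past the limma test in each of the 3 comparisons. Their medians were -0.18 in saline mutant against wild type, -0.01 in treated against saline mutant and -0.19 in treated mutant against wild type. In saline mutant against wild type 12 of the 29 were lower without overlap, against 8.78% of all genes. In treated mutant against wild type all 29 were below 0 and 9 were lower without overlap, against 5.43%. Of 15 assembly factors, which help to build the complex, none passed in any comparison, with medians of -0.13, 0.08 and -0.04.

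**Figure D4:**
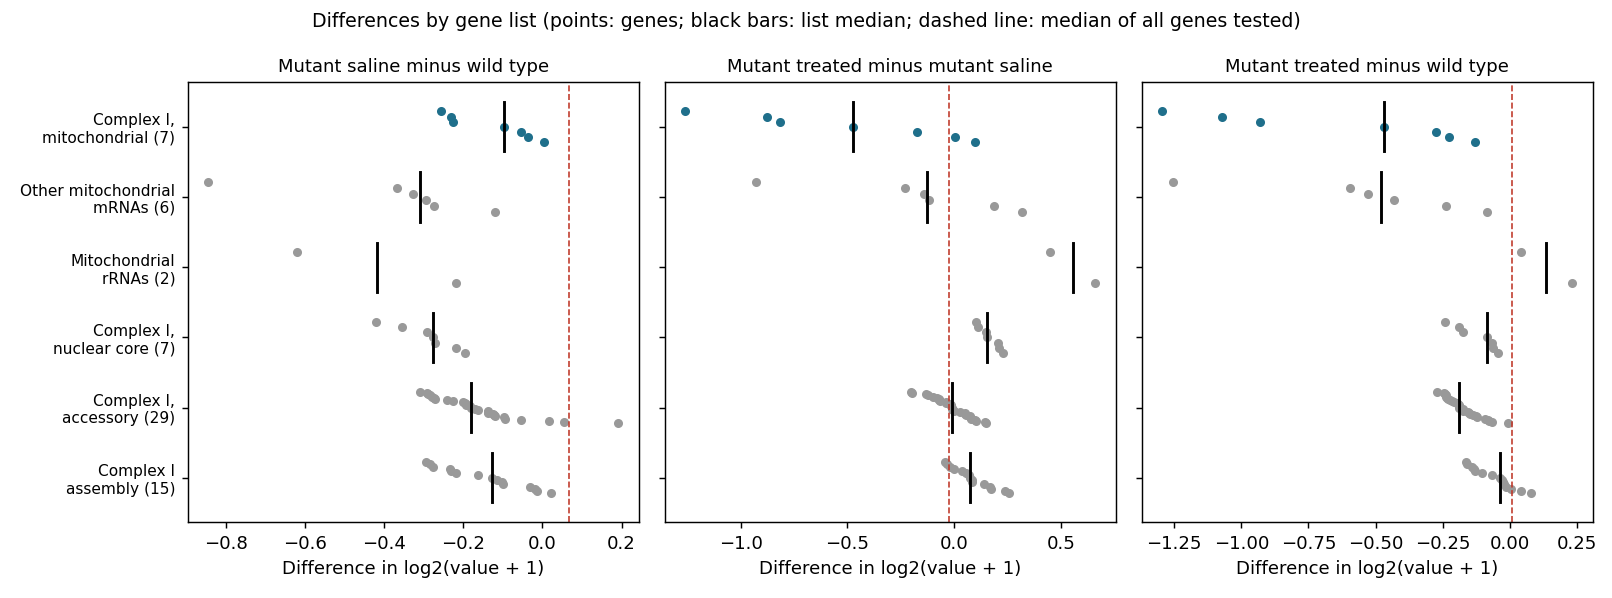
Difference in log2(value + 1) (horizontal axes) of each gene in 6 lists for the 3 comparisons, with a black bar at each list's median and a dashed line at the median of all genes tested. The mitochondrially encoded complex I transcripts spread from -1.26 to 0.10 in treated minus saline mutant, while the nuclear core subunits lie between 0.10 and 0.23; the number beside each list counts the genes plotted, including mt.Nd3, which has no test.

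The other mitochondrially encoded messengers shared part of the members' pattern. In treated against saline mutant hearts the 6 had a median of -0.13, beside the members' -0.47, with 2 higher and 4 lower. There mt.Co1 was higher without overlap, at 91212 ± 3415 against 80154 ± 4837 (SD, n = 3), and mt.Atp8 was lower without overlap. Over all genes 5.48% were higher and 4.34% lower without overlap. In treated mutant against wild type the 6 had a median of -0.48, close to the members' -0.47, and none passed. mt.Atp8 was the farthest, at 94, 49 and 56 in wild type, 66, 49 and 40 in the saline mutant and 23, 25 and 31 in the treated mutant, a log2 difference of -1.25 from wild type (SE 0.24, limma adjusted p = 0.0740). The ribosomal RNAs did not follow: mt.Rnr1 was at 1860 ± 200 in wild type, 1206 ± 56.4 in the saline mutant and 1905 ± 12.1 (SD, n = 3) in the treated mutant. Its difference of 0.66 in treated against saline mutant had a limma adjusted p of 0.139.

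Genes that transcribe mitochondrial DNA and process its RNA, of which 28 were tested, had medians of -0.01, -0.01 and 0.00 in the 3 comparisons. Hsd17b10, a subunit of the mitochondrial enzyme that trims transfer RNA ends, fell from 122 ± 9.50 to 88.3 ± 4.73 in saline mutant against wild type (log2 difference -0.46, SE 0.10, limma adjusted p = 0.0271). No other gene of that list passed in any comparison, and 0 of 10 regulators of mitochondrial biogenesis did.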

How the data were processed

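RNA-seq of 9 mouse hearts' libraries was analysed, 3 a group. Per the submitters' processing notes, HISAT2, HTSeq, DESeq2 and the mm10 build were used, with no versions given. The deposited per-library score is a whole number whose sum is nearly the same in each library; whether it is scaled for length is not given in the sources used here. The deposited tables also hold the authors' group signal (a mean), log2 fold change and p-value columns. In those tables the column of adjusted p-values equals the unadjusted p of the statistic.

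Values were tested as log2(value + 1) with limma 3.58.1 in R 4.3.3, 1 model for each comparison over the genes whose mean reached 1. Variances had a floor at the rounding variance (1/12) and a mean trend, with the prior from genes with a mean of at least 30. P-values were adjusted by Benjamini-Hochberg over all genes tested, with 0.05 as threshold, and the script was tested on simulated data. The members and lists were chosen with earlier results of these data known. mt.Nd3 was not tested. Outside the members, the text names the other mitochondrial transcripts, Mybpc3, Xist, the brown fat markers, genes called in a list and the 5 most correlated genes. Ndufs7, Ndufs8 and the nuclear copies were chosen after their values were seen. Nuclear copies were found with blastn 2.17.0 (word size 16, identity of at least 90%) in GENCODE M21 transcripts. Alternatives were other scalings, pseudocounts, filters, variance steps, one fit for all groups, a replicate block and left-out libraries. Depth is unknown, so no counting interval is given.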

Additional observations from a re-analysis of the deposited data

How the results depend on the processing

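For the 6 tested members in the 3 comparisons, 331 alternatives kept direction and side of the threshold, 21 reversed, 7 lost and 1 gained a call. The count of members called stayed at 0 in saline mutant against wild type under every alternative run. In treated against saline mutant it was 1, among 58 genes in all, when scaled to the 13 mitochondrial messengers. There mt.Nd6 passed (-0.88, limma adjusted p = 0.00394), and the count was 0 in the other alternatives. In treated mutant against wild type it was 0 under that scaling, without the rounding floor and without the libraries with Xist, and 0 to 1 with 1 library left out; mt.Nd4l then had limma adjusted p-values of 0.0524, 0.0572 and 0.0668, over a range of 0.0142 to 0.0945 in all 20 alternatives, of which 13 called it.

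The members' median in saline mutant against wild type was 0.10 when scaled to the mitochondrial messengers, 0.037 without the libraries with Xist and -0.23 to 0.028 with 1 library left out. In treated against saline mutant it was -0.86 without the libraries with Xist and -0.72 to -0.16 with 1 left out, and in treated mutant against wild type -0.28 when scaled to the mitochondrial messengers and -0.61 to -0.27 with 1 left out. In saline mutant against wild type mt.Nd3, which was not tested, changed sign in 5 of 22 alternatives (0.16 scaled to the mitochondrial messengers, 0.26 without the libraries with Xist, -0.96 to 0.45 with 1 library left out). Reversals of tested members in that comparison were those of mt.Nd2 (-0.070 with median-of-ratios factors, -0.093 with upper-quartile factors, -0.049 scaled to genes outside mitochondrial DNA, -0.31 to 0.25 with 1 library left out), mt.Nd5 (0.10 scaled to the mitochondrial messengers, 0.037 without the libraries with Xist, -0.17 to 0.028) and mt.Nd6 (0.15, 0.30, and -0.23 to 0.15). In treated against saline mutant mt.Nd1 reversed (-0.0067, -0.14, and -0.074 to 0.096), as did mt.Nd4 without the libraries with Xist (-0.0024). In treated mutant against wild type mt.Nd4 did (0.063, and -0.25 to 0.0040). The causes were not tested.

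With the replicate block the members called were 0, 0 and 1, and mt.Nd4l had a limma adjusted p of 0.0419 against wild type. All genes called then numbered 819, 30 and 35. The numbers pair nothing that the labels state, and same-numbered libraries had correlations of -0.42 to -0.04, -0.08 to 0.20 and 0.03 to 0.62, with 0, 4 and 2 of 6 libraries correlating best with their own number. In treated mutant against wild type all genes called fell from 134 to 1, 3 and 12 without wild-type replicate 1, 2 or 3, with fewer libraries in the fit. Read depth is unknown, and it limits the members at low values, mt.Nd3 and mt.Nd4l, most.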
